A study of Drosophila melanogaster with 10 samples.

Results

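In OSCs in which a silencing domain had been tethered to flamenco, the mean antisense piRNA coverage of transposons other than roo was lower than in control cells, yet a small set of positions outside roo went the other way. Each position is 1 nt of a transposon consensus sequence. A position was selected on the antisense coverage of the tethering libraries when the mean of the 2 Gal4-Panx-IDR libraries was at least 100 per 1000000 miRNA reads and at least 2 times the mean of the 2 Gal4 libraries, with both Gal4-Panx-IDR libraries above both Gal4 libraries. The rule was met by 6854 of the 600917 positions outside roo, or 1.14%, in 26 of the 122 elements (610009 positions with roo). The mirrored rule, a mean of at least 100 in Gal4 and a loss of at least 2 times with separate libraries, was met by 126507 positions, or 21.1%. Because these values chose the positions, every difference between Gal4 and Gal4-Panx-IDR libraries is given as a description, with no test.

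piRNAs are small RNAs bound by Argonaute proteins of the Piwi clade, and those antisense to a transposon guide Piwi to its nascent transcripts, where the locus is silenced. In the somatic cells of the fly ovary most of them are cut from long single-stranded precursors of flamenco, a cluster on the X chromosome packed with LTR retrotransposons inserted mainly in the orientation that yields antisense RNA. Armitage is an RNA helicase of the somatic piRNA biogenesis machinery, and Panoramix acts downstream of Piwi and recruits the factors that turn a locus into heterochromatin.

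All libraries hold Argonaute-bound small RNAs, isolated on TraPR columns from OSCs, a line cultured from somatic cells of the Drosophila melanogaster ovary. Gal4 and Gal4-Panx-IDR cells came from a clonal line, wildtype but for UAS sites and a selection cassette placed upstream of the flamenco promoter. They received plasmids for Gal4 alone or for Gal4 joined to the disordered silencing domain of Panoramix, with a second transfection after 48 h. The 2 Gal4-Panx-IDR libraries were made at day 6 and day 7 from cells sorted for low GFP of this co-silenced cassette, and are called silenced libraries. The 2 Gal4 libraries were made without such sorting, and the labels give no single harvest day for either, so that sorting and silencing cannot be told apart. The remaining libraries came from wildtype OSCs transfected with an siRNA at 0 and 48 h and harvested at 96 h, 3 with siLuc against luciferase and 3 with siArmi against armitage. Nothing in the labels says that replicates were separate cultures, so p-values measure the spread between these libraries, and a bulk library cannot tell fewer cells that carry a piRNA from fewer such piRNAs per cell.

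The depth differed between the experiments. From the smallest step between values, 87066 and 110492 miRNA reads stood behind the Gal4 libraries, 151205 behind day 6 and 117444 behind day 7, against 586560 to 1799370 in the siRNA libraries. A coverage of 100 thus amounted to 15.1 reads at day 6 and 11.7 at day 7, and 1 read added 11.5 and 9.05 to a position in the Gal4 libraries. Over all positions outside roo the mean antisense coverage was 853 and 1006 in Gal4, 368 at day 6 and 409 at day 7. With miRNA scaling the whole transposon signal was lower in both silenced libraries, and the median log2 change of the 73 elements with enough coverage was -0.62.

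Over the 6854 positions, mean antisense coverage was 44.98 and 55.7 in the Gal4 libraries, 235 at day 6 and 279 at day 7. It was 38.6, 38.2 and 28.6 in the siLuc libraries and 1.78, 1.63 and 1.57 in the siArmi libraries. Both Gal4-Panx-IDR libraries therefore stood above all others, and control cells of either experiment carried a low but measurable amount of antisense piRNAs at the same positions. The median position went from 45.6 to 243, with a median ratio of 5.68 and a range of 2.00 to 53.6, leaving out 16 positions of invader2 that were at 0 in both Gal4 libraries. At 4931 positions day 7 was above day 6, of which 3721 lay in invader2 and 427 in transib2. Outside these 2 elements it was above at 783 of 1438 positions. The share over all positions outside roo was not counted, but their mean was also higher at day 7 (409 against 368).

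The limits of the rule did not fall in a gap, since positions lay close to them on both sides. The 279 positions with a ratio of 2 to 2.1 had median coverages of 74.8 in Gal4 and 154 in silenced cells, and 342 positions with separate libraries and a ratio of 1.9 to 2, just outside, had 93.6 and 182. At the limit on level, 140 positions had a mean of 100 to 105, and 169 positions that met the other conditions had 95 to 100. Their medians, 103 and 97.4, follow from these ranges.

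The positions were spread very unevenly over the elements. invader2 alone held 4824 of them (70.4%) and transib2 held 592. A further 9 elements held 61 to 373 each (jockey, Quasimodo, Tc1-2, mdg3, Cr1a, copia, gypsy5, Repbase_DNAREP1 and opus), and the other 15 held 1 to 45, or 191 together. When 1 of the 4 tethering libraries was left out, invader2 held between 4658 and 4876 positions and transib2 between 563 and 605, but the smaller counts moved with single libraries. The count ran from 428 to 652 in jockey (highest without day 7), from 231 to 500 in Quasimodo, 176 to 504 in mdg3 and 109 to 245 in opus (highest without the second Gal4 library). It ran from 117 to 196 in Tc1-2 and 112 to 231 in Cr1a (highest without day 6), from 23 without the first Gal4 library to 169 without day 6 in copia, from 28 without day 6 to 114 without day 7 in gypsy5, and from 79 to 104 in Repbase_DNAREP1. By class, 5374 positions lay in 9 LTR elements of the Gypsy superfamily, the group to which most flamenco insertions belong, 776 in 5 DNA transposons with terminal inverted repeats, 550 in 9 LINEs, which are copied by reverse transcription at their target site, 78 in copia and 75 in Repbase_DNAREP1. These numbers are 1.63% of all Gypsy-superfamily positions outside roo, 1.81% of those of the inverted-repeat transposons, 0.353% of those of the LINEs, 0.365% of those of the Copia superfamily and 4.24% of the 1769 positions of Helitron-type repeats, the highest share of any class. Without invader2 and transib2 the first 2 counts were 550 and 184. In the mirrored direction the order was another, with 33.5% of the Gypsy-superfamily, 9.56% of the LINE, 1.82% of the Copia-superfamily, 0.622% of the inverted-repeat and 0 of the Helitron-type positions lost.

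**Figure D1:**
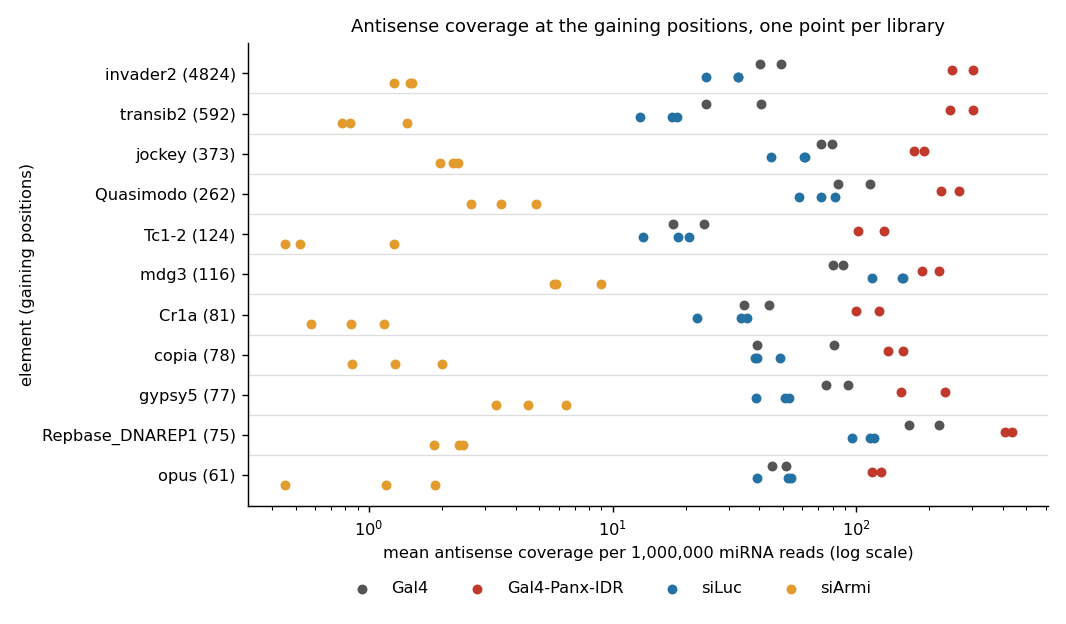
Mean antisense coverage at the gaining positions of the 11 elements with at least 50 of them, on a log axis per 1000000 miRNA reads, with 1 point per library and the number of positions in brackets. In every element both Gal4-Panx-IDR points lie to the right of the Gal4 and siLuc points, which the rule fixed for Gal4, and all siArmi points lie far to the left.

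invader2, an LTR retrotransposon of the Gypsy superfamily, was raised along nearly its whole consensus of 5124 nt. Its 4824 gaining positions, 94.1% of the element, had mean antisense coverages of 40.3 and 49.04 in the Gal4 libraries, 248 at day 6 and 303 at day 7. They rested on at least 484 and 747 antisense reads in Gal4 and 5164 and 4900 in silenced cells. The remaining positions of the element went the same way, from 44.0 and 50.4 to 87.5 and 111. In all 26 windows of 200 nt both silenced libraries were above both controls, the ratio ran from 2.61 to 8.80 with a median of 6.34, day 7 was above day 6 in each, and no window held more than 6.04% of the gain. The rise thus ran along the element and was not a single peak.

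The shape of the invader2 profile was shared by the 2 silenced libraries, with a Spearman rho of 0.956 across the 26 windows. Between the means of siLuc and silenced cells rho was 0.638 and between Gal4 and silenced cells 0.439, while the 2 Gal4 libraries, of far lower coverage, gave 0.660. The windows share libraries and base composition, so these values only describe the profiles. In siLuc cells antisense coverage was 57.5 and 66.2 in the windows from nt 2001 to 2200 and nt 2201 to 2400, against 17.2 to 34.2 in the other windows. The same pair of windows reached 349 and 383 and then 309 and 388 at day 6 and day 7, and so was among the high windows there too.

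The ends of invader2 rose less than its interior. The first 266 nt and the last 266 nt are the long terminal repeats, recognised here from 208 pairs of positions 4858 nt apart with equal coverage in every library. Antisense coverage of the 5′ repeat was 52.8 and 69.9 in Gal4 and 182 and 215 in silenced cells, a ratio of 3.23. The 3′ repeat gave 54.9 and 69.8 against 174 and 209, a ratio of 3.08. Between them, nt 267 to 4858 went from 39.01 and 46.7 to 245 and 301, a ratio of 6.37. Since a read that fits both repeats counts with a weight of 0.5 at each, 356 of the gaining positions form 178 pairs that are not independent measurements.

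On the sense strand invader2 was lower in silenced cells as scaled to miRNAs. Sense coverage of the gaining positions was 71.0 and 82.7 in Gal4, 59.2 at day 6 and 48.1 at day 7. Both silenced libraries were lower than both controls, but this direction rests on the scaling. Median-ratio scaling over the elements turned the values to 61.5 and 61.3 in Gal4 and 70.6 and 62.9 in silenced cells, and scaling to total transposon signal to 62.7 and 62.3 against 81.4 and 59.2. Within a library scaling plays no part, and the antisense strand held 36.7% of the coverage in Gal4 and 83.5% in silenced cells. Selection on the antisense coverage of these libraries favours such a rise, so it is no separate support. Sense reads were concentrated elsewhere than antisense reads, with 364 in Gal4 and 237 in silenced cells at nt 3801 to 4000 and 406 and 274 at nt 4001 to 4200. In the first of these windows antisense coverage was only 18.1 and 18.4 in the Gal4 libraries and 138 and 146 in the silenced ones, and 120 of its 200 positions met the rule. The sense profile kept its shape, with a rho of 0.973 between the group means, and sense and antisense profiles of silenced cells were not alike (rho -0.21).

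**Figure D2:**
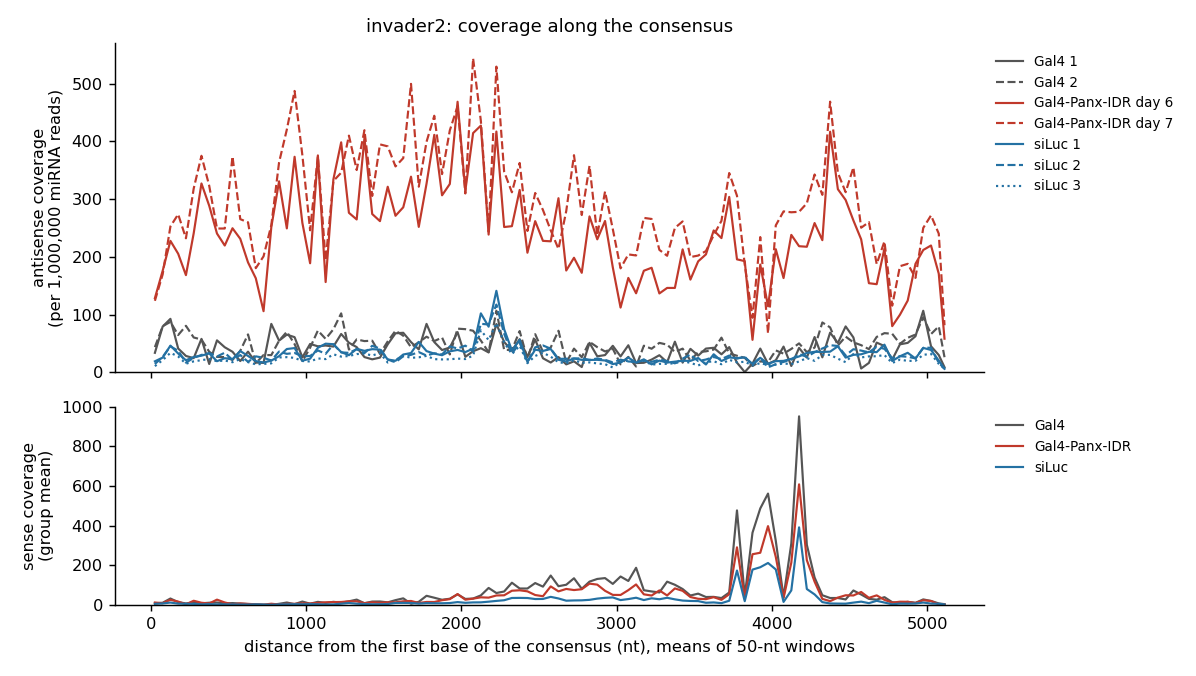
Antisense coverage of each library (upper panel) and sense coverage as group means (lower panel) along invader2, in means of 50-nt windows per 1000000 miRNA reads, against the distance from the first base of the consensus. Day 6 and day 7 run above both Gal4 libraries in all 102 windows, while the sense peak near nt 4000 is lower in the silenced than in the control libraries as scaled to miRNAs, a direction that turns over all gaining positions of invader2 with median-ratio scaling.

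transib2 is a DNA transposon of the Transib superfamily, whose transposase is related to the RAG1 recombinase of vertebrates. Its 592 gaining positions, 20.8% of a consensus of 2844 nt, had mean antisense coverages of 24.1 and 40.8 in Gal4, 243 at day 6 and 300.5 at day 7, a ratio of 8.39, the highest of any element. In contrast to invader2 the gaining positions lay in separate stretches, which were delimited after the values were seen by joining runs over gaps of up to 30 nt. The first block, nt 499 to 839 with 293 gaining positions, went from 24.8 and 48.5 to 233 and 268. The second, nt 2244 to 2511, consisted of gaining positions throughout and went from 20.8 and 31.8 to 243 and 312.

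Outside these blocks transib2 differed less. The 1404 nt between them held no gaining position, with antisense coverages of 15.5 and 18.5 in Gal4 and 17.0 and 17.7 in silenced cells as scaled to miRNAs, and 13.4 and 13.7 against 20.3 and 23.1 with median-ratio scaling. The siLuc libraries had 9.65, 9.64 and 7.17 there. The 498 nt before the first block had 28.0 and 22.9 against 24.8 and 24.98, so that the control and silenced libraries overlapped as scaled to miRNAs. Other scalings, which raise silenced relative to Gal4 libraries, were not applied to this stretch. Only the last 333 nt, with 31 gaining positions, stood between these states, at 12.6 and 16.8 against 47.2 and 66.8. Sense coverage of the gaining positions was 23.7 and 22.8 in Gal4 and 24.99 and 34.4 in silenced cells. It was present in the first block (38.7 and 34.7 against 40.8 and 58.8) and low in the second (4.71 and 8.04 against 6.76 and 6.89). The antisense share of the gaining positions went from 57.3% to 90.2%, a rise that the selection on antisense coverage favours.

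**Figure D3:**
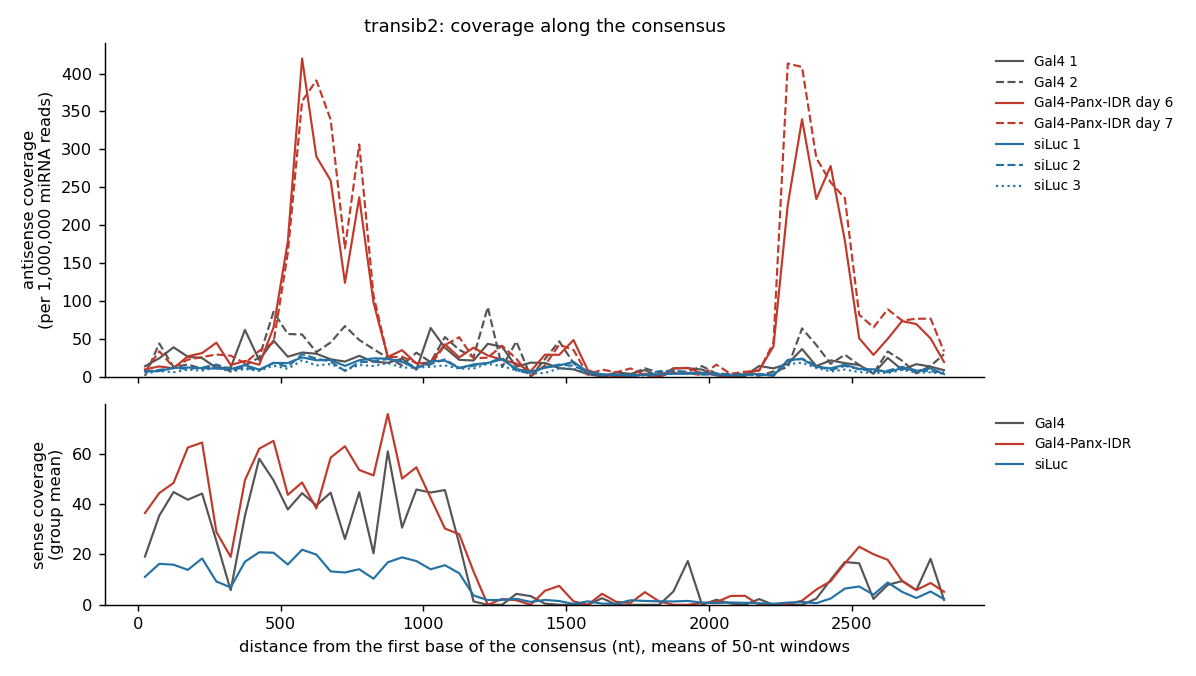
Antisense coverage of each library and sense coverage as group means along transib2, in means of 50-nt windows per 1000000 miRNA reads, against the distance from the first base of the consensus. The antisense lines of day 6 and day 7 leave those of Gal4 and siLuc cells in the 2 blocks (nt 499 to 839 and nt 2244 to 2511) and in the last 333 nt. In the 1404 nt between the blocks they run with Gal4 (15.5 and 18.5) at 17.0 and 17.7, above siLuc at 7.17 to 9.65.

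Consensus positions are not places in the genome, and which insertions gave the reads was not analysed here. In the Ensembl annotation of the BDGP6 reference genome, which is not the genome of OSCs, invader2 has 24 insertions, 8 of them at least 90% as long as the consensus. transib2 has 27 insertions, with 1 of that length.

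The other inverted-repeat transposons gave smaller numbers. Tc1-2, of the Tc1/mariner superfamily, had 124 gaining positions in 10 runs, at 17.7 and 23.6 in Gal4 and 102 and 130.2 in silenced cells, a ratio of 5.61. Here the other positions rose as well, from 15.4 and 17.4 to 42.0 and 42.7, and 26 of 33 windows of 50 nt had separate libraries. The level was low, and at least 5.46 and 9.26 antisense reads stood behind the gaining positions in the Gal4 libraries. Sense coverage of these positions overlapped between the groups, with 26.1 and 42.8 in Gal4 and 31.9 and 33.4 in silenced cells. transib4, a relative of transib2, had 45 positions with a ratio of 2.37, 1360 had 14 and hobo had 1.

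Among the Gypsy-superfamily LTR elements, Quasimodo and gypsy5 showed gains only in valleys of an otherwise falling profile. The 262 gaining positions of Quasimodo had antisense coverages of 84.5 and 114 in Gal4 and 224 and 265 in silenced cells. Its other positions, in the same libraries, had 1867 and 2658 against 655 and 706, so that the element as a whole lost coverage. All 262 lay where Gal4 coverage was under 10% of the mean of the element, as did 1933 of its positions in all. In an element that falls, a rule on the ratio to Gal4 favours positions of low Gal4 coverage, so this placement is partly set by the selection. Sense coverage at the gaining positions was 11.4 and 20.2 in Gal4 and 68.8 and 51.1 in silenced cells, higher in both silenced libraries. The other positions of Quasimodo rose on this strand as well, from 18.5 and 18.3 to 92.5 and 66.3. Of the gaining positions, 78 form 39 pairs of equal coverage in the long terminal repeats, which lie 6727 nt apart.

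gypsy5 had 77 gaining positions, at 75.2 and 92.3 in Gal4 and 232 and 152 in silenced cells, and all of them were below 10% of the mean of the element. The other positions went from 2992 and 3622 to 1030.1 and 1200.1. Sense reads at the gaining positions were listed at 0 in both Gal4 libraries and reached only 4.72 and 1.88 in the silenced ones. blood with 12 positions and Stalker2 with 11, both of the same superfamily, had the same arrangement, every gaining position lying below 10% of the element mean while the other positions were at 0.345 and 0.530 of the Gal4 level. The selection favours low Gal4 coverage in gypsy5, blood and Stalker2 as it does in Quasimodo.

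mdg3 and opus, also of the Gypsy superfamily, changed little away from the gaining positions as scaled to miRNAs, while with median-ratio scaling their other positions stood at 1.74 and 1.34 of the Gal4 level. In mdg3 the 116 positions went from 80.5 and 88.6 to 218 and 186, and its other positions from 109 and 136 to 138 and 134. Among the 11 elements, mdg3 was also the one in which siLuc cells carried most of these piRNAs, at 156, 154 and 116, so that both silenced libraries were above all siLuc libraries at only 60 of the 116 positions. In opus the 61 positions went from 51.6 and 45.3 to 116 and 126, and its other positions from 136 and 153 to 132 and 116. Sense coverage at the gaining positions was 0 and 1.93 in Gal4 and 1.19 and 4.89 in silenced cells.

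jockey, the LINE that names its clade, had 373 gaining positions in 57 short runs. Their antisense coverage was 71.5 and 79.4 in Gal4, 189 at day 6 and 172 at day 7, a ratio of 2.40 that is close to the limit of the rule. The other positions had 173 and 173 in Gal4 and 208 and 178 in silenced cells. The gaining positions were thus below the rest of the element in Gal4 and near its level in silenced cells. Selection for a ratio of at least 2 favours such an arrangement. Sense coverage was at most 4.77 in the tethering libraries. Cr1a, a LINE of the CR1 clade, had 81 gaining positions, at 43.8 and 34.7 against 99.6 and 125. Its sense coverage there was higher in both silenced libraries as well, at 82.5 and 106 against 166 and 179.

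In copia, the namesake of its superfamily, and in Repbase_DNAREP1, a Helitron-type repeat, the gains lay under a dominant sense strand. The 78 positions of copia went from 39.3 and 81.3 to 135 and 155 on the antisense strand and from 1627 and 1720 to 969.6 and 969.6 on the sense strand. The 75 positions of Repbase_DNAREP1 went from 165 and 218 to 407 and 437 on the antisense strand, the highest level among the 11 elements, and from 1335 and 1285 to 1146 and 999.97 on the sense strand. In Repbase_DNAREP1 the sense direction turned with the other scalings. In copia sense coverage stayed lower with median-ratio scaling and overlapped with total transposon scaling. With that total taken without roo it was higher in silenced cells (1297 and 1172 against 1581 and 1459). The antisense share, whose rise the selection favours, remained the smaller one in both, at 3.44% and then 13.01% in copia and at 12.7% and then 28.3% in Repbase_DNAREP1.

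The elements with under 50 gaining positions added no long stretch. The 30 positions of the LINE Ivk formed 1 run, nt 3928 to 3957, and rested on at least 0.857 and 6.69 antisense reads in the Gal4 libraries, which leaves little depth behind the difference. TART-A, a LINE of the telomeres, had 28 positions, and G4 had 21. Doc, Transpac, Doc4-element, flea and Repbase_Rt1b had 4 to 7, and I-element_new, hobo and rooA had 1 each.

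Along the consensus sequences the positions formed 240 runs without a gap. The median run was 4 nt long, 53 were single positions and 221 were no longer than 35 nt, the length of the longest read, so that the reads of overlapping positions are largely shared within them. Of the 10 runs of at least 100 nt, 8 lay in invader2 and 2 in transib2. The longest, nt 1132 to 3301 of invader2, was 2170 nt, followed in this element by nt 111 to 673 (563 nt), nt 4158 to 4641 (484 nt), nt 766 to 1127 (362 nt) and nt 3312 to 3667 (356 nt). The sixth was nt 2244 to 2511 of transib2 (268 nt), and the seventh and eighth were nt 3671 to 3842 (172 nt) and nt 3989 to 4156 (168 nt) of invader2. The ninth was nt 532 to 693 of transib2 (162 nt) and the tenth nt 4969 to 5107 of invader2 (139 nt).

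Outside invader2 and transib2 there were 208 runs, of which 206 were no longer than 35 nt. The exceptions were nt 1013 to 1060 of Quasimodo (48 nt), at 45.9 and 63.0 in Gal4 and 184 and 185 in silenced cells, and nt 611 to 648 of Tc1-2 (38 nt), at 20.6 and 14.5 against 117 and 114.9. In the other named elements the longest runs were nt 2493 to 2520 of Cr1a and nt 1582 to 1609 of copia (28 nt each), nt 2069 to 2095 of jockey (27 nt), nt 107 to 131 of Repbase_DNAREP1 (25 nt), nt 5193 to 5215 of gypsy5 and nt 3710 to 3732 of mdg3 (23 nt each), and nt 1872 to 1886 of opus (15 nt). When gaps of up to 30 nt were bridged, invader2 fell into 3 blocks, the longest of 3830 nt, and no block outside invader2 and transib2 exceeded 80 nt.

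The elements differed in what happened at their other positions, which are those that failed the rule. Taking out the gaining positions lowers the ratio of those left, so these values are not free of the selection. Over the 129490 other positions of the 26 elements mean antisense coverage went from 711 and 875 in Gal4 to 368 and 382 in silenced cells. It was at most 0.5 of the Gal4 level in 5 elements (Quasimodo, gypsy5, Ivk, blood and Doc), above 0.5 and below 0.8 in 4, between 0.8 and 1.25 in 12, and over 1.25 in 5 (Tc1-2, invader2, transib2, Repbase_DNAREP1 and Cr1a). invader2 at 2.11 and Tc1-2 at 2.58 were the elements whose other positions at least doubled as well. These groups depend on the scaling, and with median-ratio scaling they held 1, 4, 4 and 17 elements and with total transposon scaling 1, 4, 3 and 18.

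**Figure D4:**
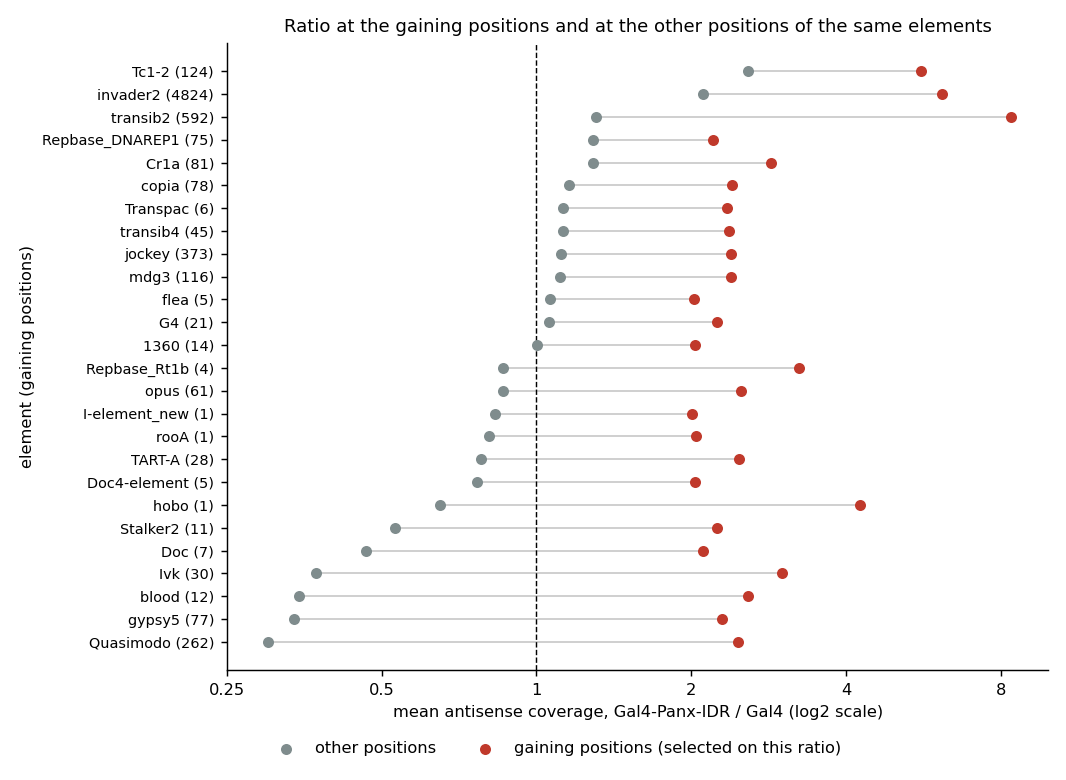
Mean antisense coverage of silenced cells divided by that of Gal4 cells at the gaining positions, which were selected on this ratio, and at the other positions of the same 26 elements, on a log2 axis, with the number of gaining positions in brackets. The other positions run from 0.301 in Quasimodo to 2.58 in Tc1-2, on both sides of the dashed line of no difference as scaled to miRNAs.

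The sense strand, which the rule did not use but which comes from the same libraries, had no common direction over the elements. Its mean over the gaining positions was 93.5 and 104.8 in Gal4, 77.9 at day 6 and 68.1 at day 7. By position, sense coverage was higher in both silenced libraries than in both controls at 757 of 6854 and lower in both at 1722, of which 1493 lay in invader2. The shares over all positions outside roo were not counted, so these counts have no background. Mean sense coverage over the other positions of the same elements went from 167 and 182 to 147 and 134. Over all positions outside roo it went from 96.4 and 106 to 96.0 and 93.9. By element, sense coverage of the gaining positions was higher in 7 (transib2, jockey, Quasimodo, Cr1a, gypsy5, blood and Stalker2), lower in 7 (invader2, copia, Repbase_DNAREP1, TART-A, 1360, Doc and hobo) and overlapping in the others, as scaled to miRNAs. With median-ratio scaling it was higher in 14 elements, invader2 and Repbase_DNAREP1 among them, and lower in 3 (copia, Doc and hobo), and the means over all gaining positions were 80.9 and 77.7 in Gal4 and 92.8 and 88.9 in silenced cells. With total transposon scaling it was higher in 14 and lower in 2. Sense exceeded antisense coverage at 2674 positions in Gal4 cells and at 415 in silenced cells. The antisense strand held 33.6% ± 1.6 of the coverage in Gal4 and 77.7% ± 3.8 in silenced cells (SD, n = 2 each), while at all positions outside roo it held 90.2% ± 0.45 and 80.3% ± 1.4. Selection on antisense coverage by itself favours this rise at the gaining positions and the fall from 2674 to 415.

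In siLuc cells, whose flamenco locus was not targeted, the same positions were covered at a low level. Antisense coverage was above 0 in all 3 libraries at each of the 6854 positions, with a mean of 35.2 ± 5.7 (SD, n = 3) and a median of 27.5. At 6793 positions, and over the positions of each of the 26 elements, all siLuc libraries lay below both Gal4-Panx-IDR libraries, which in turn had been chosen for being high. The siLuc mean was 0.699 of the Gal4 mean at the gaining positions and 0.651 of it at all positions outside roo, and it was below the Gal4 mean in 20 of the 26 elements. By element it was 29.8 ± 4.9 in invader2, 16.3 ± 2.9 in transib2, 55.9 ± 9.6 in jockey, 70.8 ± 12 in Quasimodo and 142 ± 22 in mdg3 (SD, n = 3 each). Clones, adaptors and depth differed between the 2 experiments, and their part in these ratios was not tested. Antisense reads made up 47.3% ± 1.2 of the coverage in siLuc cells, between the shares of both tethering groups.

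**Figure D5:**
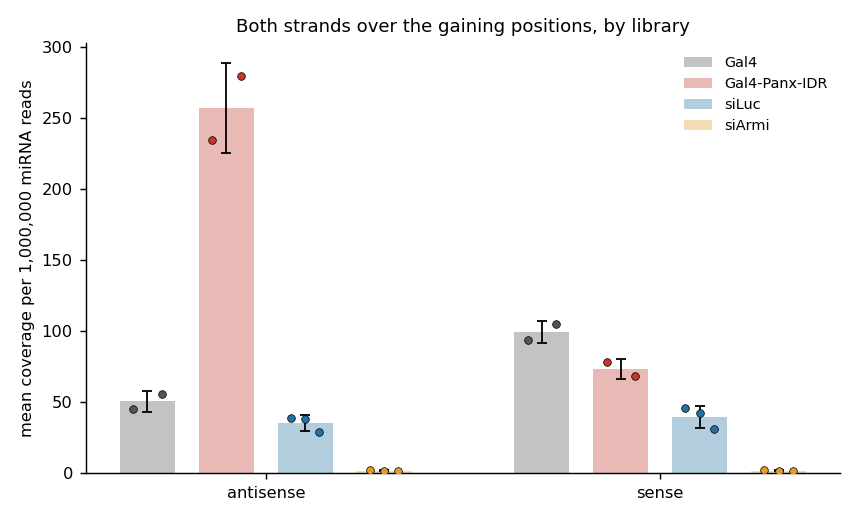
Mean coverage over the 6854 gaining positions on each strand, per 1000000 miRNA reads. Bars are group means with the SD as error bars, and points are libraries (2 per tethering and 3 per siRNA group). Antisense coverage of silenced cells, selected to be high, was 257, against 50.3 in Gal4, 35.2 in siLuc and 1.66 in siArmi cells, and sense coverage was 73.0, 99.1, 39.4 and 1.69.

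Depletion of Armitage, which shares no library with the rule, was compared with siLuc cells, whose flamenco locus was not targeted. The comparison therefore concerns the low coverage that these positions have in control cells. Whether the coverage gained in silenced cells depends on Armitage was not tested. Antisense coverage over the positions was 35.2 ± 5.7 in siLuc and 1.66 ± 0.11 in siArmi cells (SD, n = 3 each), a log2 change of -3.75 in log2(coverage + 1), with 4.72% ± 0.30 left. Sense coverage went from 39.4 ± 7.8 to 1.69 ± 0.24, a log2 change of -3.89. The groups did not overlap on either strand, and an exact permutation test (two-sided) gave p = 0.1, the smallest value that 3 against 3 libraries allow. All siArmi libraries were below all siLuc libraries at 6851 of the 6854 positions.

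Over all positions outside roo 4.86% ± 0.36 of antisense coverage was left, so the loss at the gaining positions was of the size seen elsewhere. In windows of 50 nt along every consensus, tested with limma at a Benjamini-Hochberg adjusted p of 0.05, all 5284 antisense windows with enough coverage fell, or 100%. In 119 windows gaining positions made up at least 0.5 of the window, of which 96 could be tested and 96 fell, with a median log2 change of -3.76 (range -4.85 to -2.87) beside -4.33 over all windows tested. By element these were 83 of invader2, 6 of transib2, 3 each of jockey and Quasimodo and 1 of Repbase_DNAREP1. On the sense strand 2085 of 2109 windows fell, or 98.9%, and 22 rose. Of the windows of gaining positions 40 could be tested and 40 fell, with a median of -3.88 beside -4.17. On both strands the order of the 2 medians depends on the constant added before the log2. With 0.1 in place of 1 they were -4.56 beside -4.51 for antisense and -5.00 beside -4.63 for sense windows.

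Both counts rest on scaling to miRNAs, since scaling to total transposon signal left 0 antisense and 2 sense windows of the gaining positions called as lower. Without the second siLuc library, fewer sense windows reached the coverage limit, and 26 in place of 40 were called. Among single elements, the coverage left after Armitage depletion ran from 2.02% ± 0.29 in Repbase_DNAREP1 to 9.98% ± 3.3 in gypsy5 among the 11 elements with at least 50 positions, and was 4.74% ± 0.42 in invader2 and 6.20% ± 2.2 in transib2 (SD, n = 3 each).

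The number of gaining positions also depends on the scaling of the tethering libraries. Scaled to total transposon signal, which moves the median log2 change of the 73 elements by 0.698, the rule was met by 17410 positions in 47 elements. The 6854 were all among them, and invader2 then held 5008 and transib2 665. The additional positions are gains relative to a total that was itself lower in silenced cells.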

How the data were processed

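Argonaute-bound small RNAs of 10 OSC libraries were analysed, 2 each of Gal4 and Gal4-Panx-IDR cells and 3 each of siLuc and siArmi cells. The authors trimmed adaptors with cutadapt, kept reads of 24 to 35 nt, aligned them with bowtie to consensus sequences based on RepBase, and deposited the coverage of each position and strand per 1000000 miRNA reads (the versions used for this step are not given in the sources used here). Reads were kept when they aligned to a single consensus at 1 place, or at 2 places with a weight of 0.5 each, so elements that share sequence lose coverage. Antisense values carry a minus sign in the files, and their absolute value was taken. 0 columns were left out.

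Positions were selected by the rule given with the results. The positions, the naming rule and the alternatives were chosen with earlier results of these data known. The Gal4 and Gal4-Panx-IDR libraries made that choice, so tests were run only between siArmi and siLuc libraries. Coverage is not a count, and windows of 50 nt with a mean of at least 10 were compared on log2(coverage + 1) with limma 3.58.1 in R 4.3.3, with the spread modelled as a function of level and Benjamini-Hochberg adjustment at 0.05. The prior degrees of freedom were infinite, so each window was tested against the spread shared by all. Tested on simulated data with 200 windows changed by 1 on the log2 scale, the fit recovered 168 with 11 false calls among the 5284 antisense windows, and 195 with 14 among the 2109 sense windows. The simulated windows were independent with a common spread and mostly unchanged. The simulation therefore cannot test the shared spread, or data in which nearly all windows fell. Single values were compared by an exact permutation test. Every element with a gaining position is counted, those with at least 50 are given with values, as are the 10 longest runs and the longest run of each. Other elements, positions or stretches named with values were chosen after these were seen. Python 3.11.15 with pandas 2.3.3 and numpy 2.4.6 made the tables and matplotlib 3.10.9 the figures. Depth was read from the smallest step between values, which is 0.5 read. Consensus sequences, the OSC genome assembly and the insertions that gave the reads were not analysed here.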

Additional observations from a re-analysis of the deposited data

How the results depend on the processing

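Of the choices behind the number of gaining positions, scaling mattered most. Total transposon signal gave 17410 positions, the same without roo 35004 and median-ratio scaling 15894, and each of these sets held all 6854. These scalings move the median log2 change of 73 elements, which was -0.62, by 0.698, 1.11 and 0.653. Level limits of 50 and 200 gave 9871 and 4577 positions, ratio limits of 1.5 and 3 gave 9453 and 5477, and leaving out 1 tethering library gave 7201 to 8468. The sense log2 ratio of silenced to Gal4 cells turned with the scaling, an alternative chosen after seeing the data. Over all gaining positions it was -0.44 as deposited and 0.24, 0.65 and 0.20 with these scalings in the same order, in invader2 -0.52 and then 0.17, 0.58 and 0.12, and in Repbase_DNAREP1 -0.29 and then 0.39, 0.80 and 0.34. The counts of elements outside invader2 and transib2 moved with single tethering libraries, from 1438 positions to 1846, 3030, 2552 and 2201. Of the windows of gaining positions that fell on Armitage depletion (96 antisense and 40 sense), total transposon scaling left 0 and 2, windows of 25 nt gave 198 and 81, those of 100 nt gave 46 and 19, since more or fewer windows then cover the same positions, and without a coverage limit 114 sense windows fell. With 1 siRNA library left out, the counts ran from 65 to 109 antisense and from 26 to 43 sense windows (26 without siLuc replicate 2), and the log2 changes over all gaining positions from -3.89 to -3.68 and from -4.06 to -3.78. With total transposon scaling these log2 changes were -0.03 (exact permutation p = 0.3) and -0.17 (p = 0.1). Without invader2, an alternative chosen after seeing the data, they were -3.90 and -4.13. With the replicate number as a block (replicate block) the counts stayed at 96 and 40 and the log2 changes at -3.75 and -3.89, with a smallest possible exact p of 0.25. Deviations of libraries with the same number correlated at 0.063, -0.035 and 0.042, within the range of the other pairs (-0.119 to 0.095). These values show no pairing by number, but so few libraries cannot exclude it. Pseudocounts of 0.1 and 10 and limma without the trend changed neither count of windows. The log2 changes over all gaining positions were -4.31 and -4.45 with a pseudocount of 0.1, and -1.95 and -2.07 with 10. The tethering libraries hold 87066 to 151205 miRNA reads, which limits every element with few gaining positions.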

Other observations

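With the limit on level lowered from 100 to 50, 9871 positions in 46 elements met the rule, and 20 of these elements had none at 100. invader2 then held 4941 positions and transib2 775. With the limit raised to 200, 4577 positions in 13 elements remained, of which 3706 lay in invader2, 445 in transib2 and 426 elsewhere. With a ratio of at least 3, 5477 positions in 17 elements were left, 4591 of them in invader2, 574 in transib2 and 312 in all other elements.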
